A study of Drosophila melanogaster with 3 samples.

Results

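Of the 18164 annotated genes on the chromosome arms of Drosophila melanogaster, transposable elements left out, 290 have the Ensembl biotype tRNA, and all 290 are described here. The 22 mitochondrial tRNA genes were not used. The genes were taken by biotype alone, with no measured value. Arm 2R holds 98, arm 3R 79, arm 3L 48, arm 2L 41 and the X chromosome 24, and chromosome 4 holds none. They carry 44 anticodons and fall into 22 amino acid groups, counting initiator methionine and selenocysteine apart. The annotated genes are 71 to 186 bp long with a median of 73 bp. Their nucleotide sequences repeat: there are 95 distinct ones, and 238 genes have at least 1 identical copy on the arms, up to 13 copies of a sequence.

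The assay was chromatin immunoprecipitation with sequencing (ChIP-seq) of E(spl)mβ, a transcriptional repressor with a basic helix-loop-helix domain that belongs to the Hairy/E(spl) proteins and acts downstream of Notch. Whole embryos, 0 to 24 h old and of both sexes pooled, came from a stable transgenic line in which the protein carries green fluorescent protein at its C terminus, and an antibody against that tag was used on fragments of 200 to 800 bp. There was 1 group of 3 biological replicates and nothing to compare it with, so no test between conditions was possible, and a summit in a mixed-age whole embryo cannot be assigned to a cell type or stage. The labels give no promoter or cell type for the transgene, and they name an outside experiment as a possible control, which was not analysed here. The authors deposited a peak list for each replicate, a pooled list of 30000 peaks called on the joined alignments, and a shorter IDR list. IDR, the irreproducible discovery rate, is a way of keeping peaks that rank alike in repeated experiments, and here the IDR list holds the pooled peaks with signals of at least 286.5. The summit is the highest point of a peak. A gene was counted when a summit lay within 500 bp of its 5′ end, and each peak's signal, the authors' enrichment over a control alignment, was compared only within a list.

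Transfer RNAs carry amino acids to the ribosome and are transcribed by RNA polymerase III. Their promoters lie inside the gene: transcription factor TFIIIC recognises the A box and the B box within the transcribed sequence and places TFIIIB, made in flies of Brf, Bdp1 and the TATA-binding-protein relative Trf, just upstream of the start. Many tRNA genes lie in clusters of like copies, which share nearby peaks and in whose bodies short reads cannot always be placed.

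The genes below are those with the highest IDR signals whose sequence may be shown. Each is read from the Release 6 assembly of RefSeq (dm6 coordinates), 5′ to 3′ on the gene's strand, and capitals mark the B box as searched, GTTCNANNC. Identical copies are shown once. Each sequence shown holds the B box letters, as do 271 of all 290 tRNA genes (93.4%), so the letters do not set these genes apart. The Tyr gene lies at chr3R:8669081-8669174 on the minus strand, the Leu gene at chr3R:24112964-24113047 on the plus strand, the Val gene at chr3R:19672277-19672349 on the minus strand and the Gln gene at chrX:3427452-3427523 on the minus strand. The Asp sequence stands at chr2L:8541552-8541623 (minus) and, as tRNA:Asp-GTC-1-5, at chr2L:8541761-8541832 (plus). The Cys sequence stands at chr3L:3095737-3095808 and, as tRNA:Cys-GCA-1-2 and tRNA:Cys-GCA-1-3, at chr3L:3095991-3096062 and chr3L:3096369-3096440, all on the plus strand.
tRNA:Tyr-GTA-1-8: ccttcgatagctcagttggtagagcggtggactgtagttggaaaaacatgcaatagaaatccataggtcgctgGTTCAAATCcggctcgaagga
tRNA:Leu-TAA-2-1: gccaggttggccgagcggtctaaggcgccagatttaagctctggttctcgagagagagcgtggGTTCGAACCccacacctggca
tRNA:Val-CAC-2-5: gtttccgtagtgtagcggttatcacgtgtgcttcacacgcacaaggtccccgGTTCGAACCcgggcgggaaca
tRNA:Gln-TTG-2-1: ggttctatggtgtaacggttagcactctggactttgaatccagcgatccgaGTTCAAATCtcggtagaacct
tRNA:Asp-GTC-1-4: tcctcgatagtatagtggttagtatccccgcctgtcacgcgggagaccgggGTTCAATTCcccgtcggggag
tRNA:Cys-GCA-1-1: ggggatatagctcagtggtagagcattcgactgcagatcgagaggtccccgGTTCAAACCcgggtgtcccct

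More than 1 in 2 tRNA genes stood beside a called peak, and few of these peaks were strong enough for the IDR list. In the pooled list 163 of 290 tRNA genes had a summit within 500 bp (56.2%, exact 95% binomial interval 50.3 to 62.0%), against 37.4% of all annotated genes and 17.4% of all positions of the arms. In the IDR list 39 of 290 did (13.4%, interval 9.74 to 17.9%), against 21.9% of all annotated genes and 5.87% of positions. The tRNA genes thus stood above the share of all genes in the pooled list and below it in the IDR list, and above arm positions in both. These intervals cover counting of genes only, and genes of a cluster share peaks, so they are too narrow. No read totals are in the files, so the depth is unknown.

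Each replicate alone gave a share above that of all genes. Replicate 1 had a summit at 175 tRNA genes (60.3%, all genes 39.6%), replicate 2 also at 175 (60.3%, all genes 40.7%), and replicate 3 at 141 (48.6%, all genes 38.8%). Replicate 3 stood apart at tRNA genes, with the lowest share, while the shares of all genes in the 3 replicates lay close together. The replicate lists hold 29995, 30000 and 30000 peaks on the arms. With lengths this alike, shares of all genes can lie close together, and weaker peaks may fall outside a list. A summit in all 3 replicates was found at 107 tRNA genes (36.9%), against 30.5% of all genes. Of the 64 tRNA genes with a summit in 2 replicates, 41 lacked it in replicate 3, 15 in replicate 1 and 8 in replicate 2. No replicate list had a summit at 77 tRNA genes (26.6%, against 50.9% of all genes).

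Beside other gene classes, counted at the gene's annotated 5′ end, the tRNA genes had the highest pooled share and a middling IDR share. Protein-coding genes reached 40.6% in the pooled list and 25.5% in the IDR list. The 32 small nuclear RNA genes, some of which are also RNA polymerase III genes, reached 43.8% and 18.8%. The 269 small nucleolar RNA genes, mostly processed from introns of host transcripts, reached 19% and 9.67%. No class differences were tested, since neighbouring genes share peaks.

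Most peaks at tRNA genes were of middle rank. Taking the highest summit at each gene, the median pooled signal was 193 (61.2 to 3486) where the list's median was 156.5, and the median IDR signal was 417 (295 to 3486) where the list's median was 535. In replicate 1 the median at tRNA genes was 129 against 84.8 for the list, in replicate 2 it was 50.2 against 43.1, and in replicate 3 it was 42.9 against 49.6. These values take the highest summit at each gene and count a shared peak once per gene, which can raise them. Counting each summit near a tRNA gene once, the median was 156.3 over 152 summits in the pooled list, next to the median of all pooled peaks. In the same way it was 100.95 over 168 summits in replicate 1, 39.4 over 155 in replicate 2 and 41.5 over 121 in replicate 3. Only in replicate 1 was this above the median of the replicate's list. Of these 152, 26 (17.1%) were in the IDR list, against 28.5% of all pooled summits, 45% of those within 500 bp of a protein-coding transcription start site (TSS) and 21.6% of those over 1000 bp from any. Of the 106 tRNA summits with no TSS within 1000 bp, 11 (10.4%) were in the IDR list. Of all 152 tRNA summits, 1 (0.658%) was among the 1000 strongest pooled peaks, against 3.33% of all pooled summits. In the ranks from just below the IDR list down to 15000 were 50 of the 152 (32.9%), against 21.5% of all pooled summits.

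Peaks outside the IDR list accounted for 124 of the 163 tRNA genes, with pooled signals of 61.2 to 285.8. Of these 124 genes, 68 had a summit in all 3 replicates, 41 in 2, 12 in 1 and 3 in none. Counted by summit and with a match within 100 bp, 26.2% of the 126 pooled-only summits at tRNA genes were met in all 3 replicates, against 27.4% of all 21451 pooled-only summits. Those shares lay close together. Of the 39 genes in the IDR list, 37 had a summit in all 3 replicates and 2 had it in 2.

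**Figure D1:**
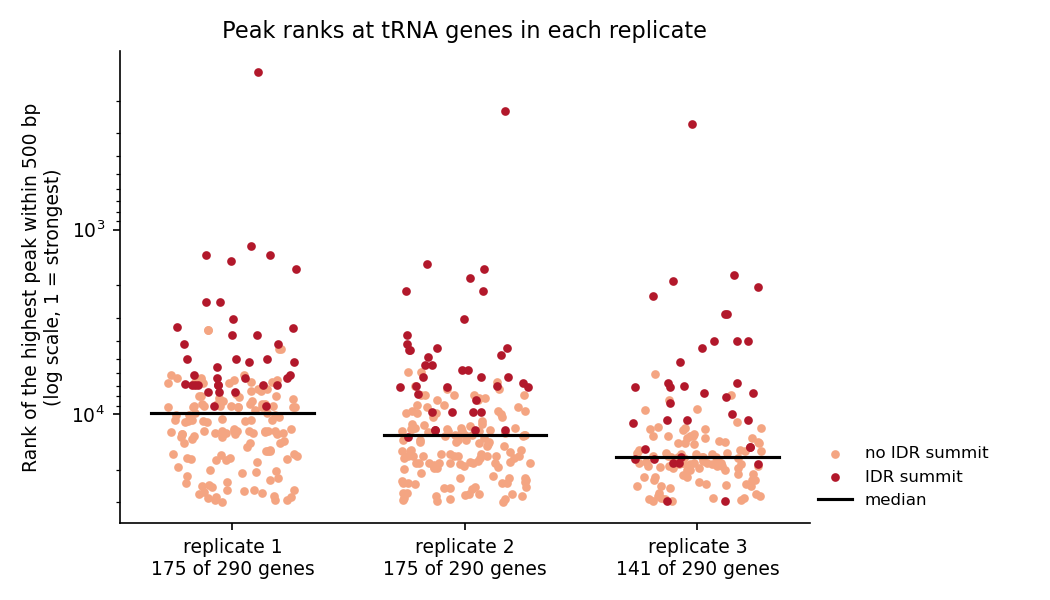
Rank of the highest peak within 500 bp of each tRNA gene in each replicate list (log scale, rank 1 at the top is the strongest peak); each point is a gene, dark points are genes with an IDR summit, and bars are medians. The medians are 9871, 12935 and 17015 in replicates 1, 2 and 3, and 1 gene stands far above the rest in each.

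Ranks of the same tRNA genes varied between replicates, as the plot of ranks by replicate shows. Over the 107 genes with a summit in all 3, Spearman's rho of the signals was 0.76 between replicates 1 and 2, 0.50 between 1 and 3 and 0.42 between 2 and 3. These are given as a description over genes, which share peaks within clusters. Among the strongest peaks of each replicate, as many as the IDR list holds, were the summits at 67 tRNA genes in replicate 1, 45 in replicate 2 and 23 in replicate 3, and 14 genes were in that range in all 3. The share of all genes in that range was not counted, so these counts cannot be called high or low.

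The 39 genes in the IDR list were served by 26 summits in 22 of the 144 clusters, where a cluster joins genes no more than 5000 bp apart. Of the 26 summits, 12 lay within 500 bp of 1 tRNA gene and 14 within 500 bp of at least 2. A tRNA gene body was nearer than any protein-coding TSS for 21, and a TSS was nearer for 5. No other kind of feature was compared. All 26 were taken for lying within 500 bp of a tRNA 5′ end, which favours the tRNA gene. A TSS lay within 500 bp of 11 summits, and 11 had none within 1000 bp. All 3 replicates had a summit within 100 bp for 22 of the 26, and 19 were in the weaker of 2 equal parts of the IDR list.

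By far the strongest was the peak at tRNA:Tyr-GTA-1-8 (FBgn0012024), a tyrosine tRNA gene with an intron and no identical copy. Its pooled signal was 3486, rank 182, and the replicates gave signals of 1726, 724 and 1032 at ranks 140, 226 and 268. The replicates thus placed it alike. The summit at 3R 8669357 lies 183 bp upstream of the tRNA gene and 261 bp from a TSS of CG8036, so the peak cannot be assigned to either gene from its position. A weaker IDR summit of the same peak, with a signal of 314, lies 58 bp from the CG8036 TSS.

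Other strong summits at tRNA genes also lay near protein-coding TSSs. The summit at tRNA:Leu-TAA-2-1 (FBgn0053536) had a pooled signal of 1149.6 and replicate signals of 572, 231 and 333, and lies 220 bp upstream of the tRNA gene and 355 bp from a TSS of CG13605. The one at tRNA:His-GTG-1-3 (FBgn0050251) had 1045.5, with 511, 248 and 289.8 in the replicates, and is nearer to the TSS of CG8490, at 112 bp, than to the tRNA gene, at 138 bp. These stood in the upper part of every list, at ranks from 1232 to 2280 in the replicates.

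At tRNA:Val-CAC-2-5 (FBgn0012003) the signal was 999.98, with 485, 165 and 349 in the replicates. Its summit, 474 bp from the tRNA 5′ end, is the farthest of those counted and lies 425 bp from a TSS of Naam, a nicotinamidase gene. The nearest gene outside the 500 bp limit, tRNA:Leu-CAA-2-2 (FBgn0052127), has its nearest IDR summit at 517 bp.

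The summit at tRNA:Trp-CCA-2-2 (FBgn0050227) and tRNA:Gly-GCC-1-9 (FBgn0011868) had a signal of 998 and lies 54 bp from a TSS of CG30122. Within 500 bp of the Trp gene the replicates gave 536, 258 and 318. The Gly gene, 472 bp from the summit of 998, had 536 and 80.1 in replicates 1 and 2 and none in replicate 3. A weaker IDR summit at these genes, with a signal of 350.4, lies 33 bp from the Trp gene and 254 bp from the CG30122 TSS. Matched within 100 bp, the summit of 998 had 258 and 318 in replicates 2 and 3 and none in replicate 1. The 536 and 80.1 belong to the weaker summit, which had none in replicate 3. At tRNA:Phe-GAA-1-2 (FBgn0052740) the signal was 497, with 211, 119 and 146 in the replicates, and the summit lies 11 bp from a TSS of RpL17, a protein of the large ribosomal subunit.

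The strongest summit with no TSS near lay between tRNA:Arg-CCT-1-2 (FBgn0050212) and tRNA:Arg-CCT-1-3 (FBgn0053538), divergent arginine tRNA genes. The summit is 186 bp upstream of the first and 265 bp upstream of the second, and the nearest protein-coding TSS, of CG16898, is 4449 bp away. Its pooled signal was 827, and the replicates gave 374, 209 and 243 at ranks 2463, 2155 and 2859. It ranked in the upper part of every list, as the summits at tRNA:Leu-TAA-2-1 and tRNA:His-GTG-1-3 did.

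Lower signals with no TSS within 1000 bp stood at several genes. At tRNA:Ala-TGC-2-1 (FBgn0011879) the signal was 552, with 327, 145 and 88.2 in the replicates. Between tRNA:Ser-TGA-1-1 (FBgn0050201) and tRNA:Ser-TGA-2-1 (FBgn0050202), which are the whole serine TGA family, it was 514, with 261, 125 and 114. At tRNA:Gln-TTG-2-1 (FBgn0052493), inside a protein-coding gene on the same strand, it was 454, with 188, 117 and 171.

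At tRNA:Glu-TTC-1-5 (FBgn0011849), in a cluster of 7 genes, the signal was 486, with 301, 133 and 76.7, and at tRNA:Thr-AGT-1-2 (FBgn0050299), in a cluster of 2, it was 422, with 304, 90.1 and 68.2. In both genes replicate 3 ranked the peak lowest, at 9956 and 11126. A summit of 417 lay within 500 bp of tRNA:Cys-GCA-1-1 (FBgn0052288), tRNA:Cys-GCA-1-2 (FBgn0052289), tRNA:Cys-GCA-1-3 (FBgn0052287) and tRNA:Lys-CTT-1-12 (FBgn0052285), and 124 bp from the nearest of these gene bodies. Its replicate signals were 176 and 53.3 in replicates 1 and 2 and 185 in replicate 3, where the first Cys gene alone had no summit within reach. The Asp genes tRNA:Asp-GTC-1-4 (FBgn0051604) and tRNA:Asp-GTC-1-5 (FBgn0051603) shared a summit of 439 that lies inside the second gene, the only IDR summit inside a tRNA gene body, 330 bp from a TSS of Sema1a, which encodes an axon guidance semaphorin. Its replicate signals, matched within 100 bp, were 199.9, 49.4 and 100.4. A weaker IDR summit at these genes, with a signal of 350.1, lies 96 bp from the Sema1a TSS and 219 bp from the tRNA gene. The highest replicate signals within 500 bp of the Asp genes were 283, 66.2 and 100.4, of which the 66.2 belongs to the weaker summit.

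**Figure D2:**
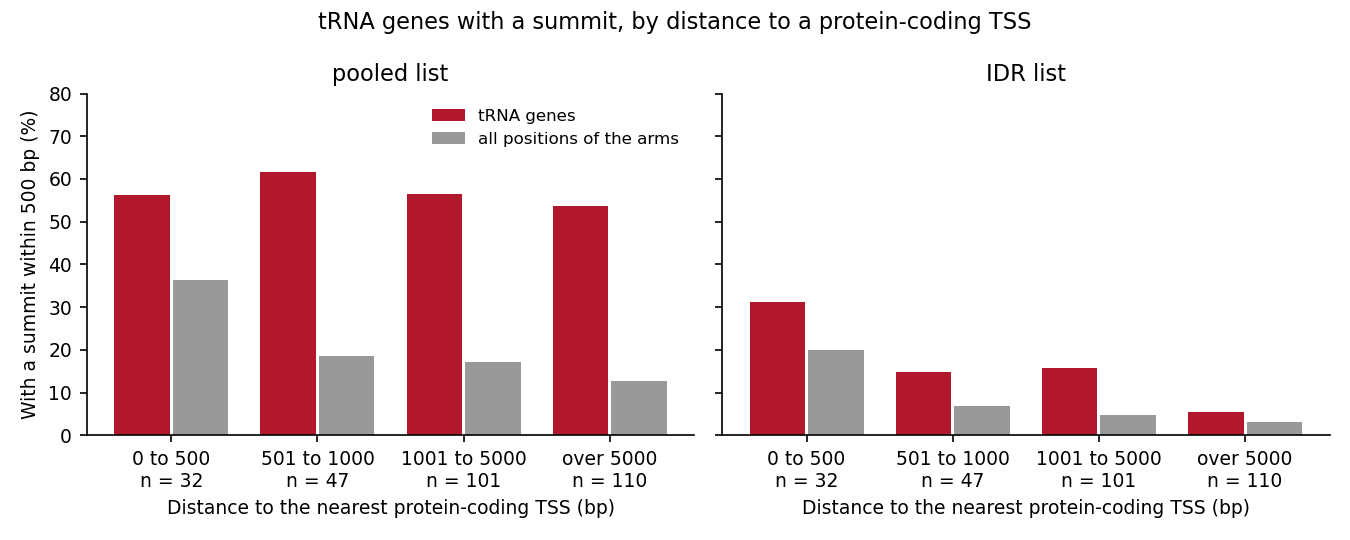
Share of tRNA genes with a summit within 500 bp of the 5′ end (percent, red) in the pooled list (left) and the IDR list (right), by distance of the tRNA gene to the nearest protein-coding TSS in bp, beside the share of all arm positions at the same distances (grey). The pooled share of tRNA genes lies between 53.6 and 61.7% in every class, while that of positions falls from 36.4 to 12.6%.

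The IDR share of tRNA genes was highest within 500 bp of a protein-coding TSS and lowest over 5000 bp from one. Of the 32 tRNA genes within 500 bp of a TSS, 31.2% had an IDR summit, against 19.9% of arm positions at that distance. Over 500 and up to 1000 bp the share was 14.9% of 47 genes against 6.91% of positions, from there to 5000 bp 15.8% against 4.7%, and over 5000 bp 5.45% of 110 genes against 3.02%. In the pooled list the shares of tRNA genes in the same order were 56.2, 61.7, 56.4 and 53.6%, and those of positions were 36.4, 18.6, 17.2 and 12.6%. The pooled share of tRNA genes, shown in the plot by TSS distance, thus varied little with distance while the share of positions fell.

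Over 1000 bp from any protein-coding TSS there were 211 tRNA genes. Of these, 116 (55%) had a pooled summit, against 14.5% of positions this far from a TSS. An IDR summit stood at 22 (10.4%), against 3.73% of such positions. Of the 79 nearer genes, 47 (59.5%) had a pooled and 17 (21.5%) an IDR summit, against 28.6 and 14.3% of positions. By position relative to protein-coding genes, the pooled share was 57.7% of the 156 genes in none, 57.3% of the 75 inside a gene on the opposite strand and 50.8% of the 59 inside one on the same strand. The IDR shares of these classes were 11.5, 20 and 10.2%, and the shares with a summit in all 3 replicates 37.2, 44 and 27.1%, so both were highest on the opposite strand. Several genes on the opposite strand share an IDR summit, as tRNA:Cys-GCA-1-1 and tRNA:Lys-CTT-1-12 do, and each counts it.

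**Figure D3:**
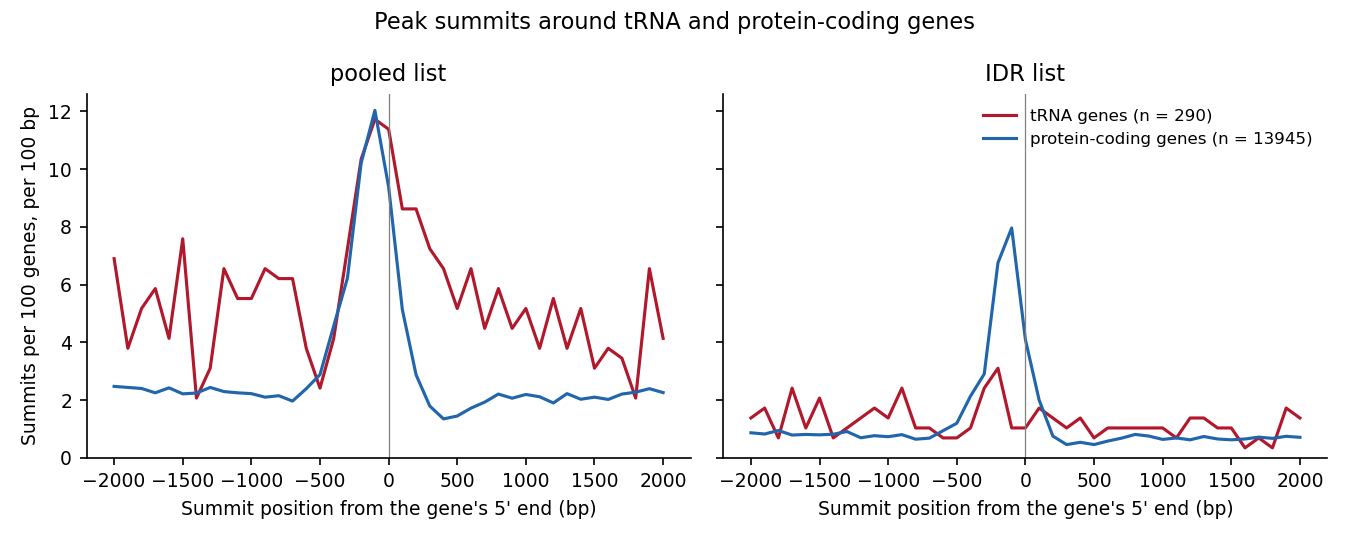
Summits per 100 genes in bins of 100 bp by position from the gene's 5′ end in the gene's direction (bp, negative is upstream), for tRNA genes (red) and protein-coding genes (blue), in the pooled list (left) and the IDR list (right). In the pooled list both peak just upstream of the 5′ end, the tRNA genes at 11.7 and the protein-coding genes at 12.0, and the tRNA curve falls off more slowly downstream.

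Pooled summits were denser close to tRNA genes than farther away when all genes were counted, and less so at isolated genes. Over all tRNA genes there were 10.1 summits per 100 tRNA genes and 100 bp within 250 bp of the 5′ end, and 4.67 at 1000 to 2000 bp. Neighbouring genes count the same summit several times here. The 79 tRNA genes with no other tRNA gene and no protein-coding TSS within 1000 bp had 5.82 near and 4.09 far, and their highest bin, 11.4, was centred 600 bp downstream. In the IDR list all tRNA genes had 1.66 near and 1.21 far, and the isolated genes 0 near and 1.15 far. Protein-coding genes had 7.93 near and 2.24 far in the pooled list. In the pooled bins centred 100 to 400 bp downstream of the 5′ end, all tRNA genes had 7.76, and in those as far upstream 8.36, so both sides were nearly alike, whereas protein-coding genes had 2.79 downstream and 8.26 upstream. The plot of summits by position shows this wider spread. A tRNA gene is short, so most downstream summits lie past its end, and in clusters they can belong to the next gene.

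Of the 163 pooled genes, the nearest summit lay upstream in 92 (56.4%), inside the gene in 18 (11%) and past its end in 53 (32.5%), at a median of -33 bp. It was within 250 bp in 129 (79.1%). For the 39 IDR genes the median was -115 bp, with 23 upstream, 1 inside and 15 past the end, and 23 (59%) were within 250 bp. Of the 79 isolated genes, 30 (38%) had a pooled summit, 17 upstream, 6 inside and 7 past the end, at a median of -50 bp, but only tRNA:Gln-TTG-2-1 had an IDR summit.

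**Figure D4:**
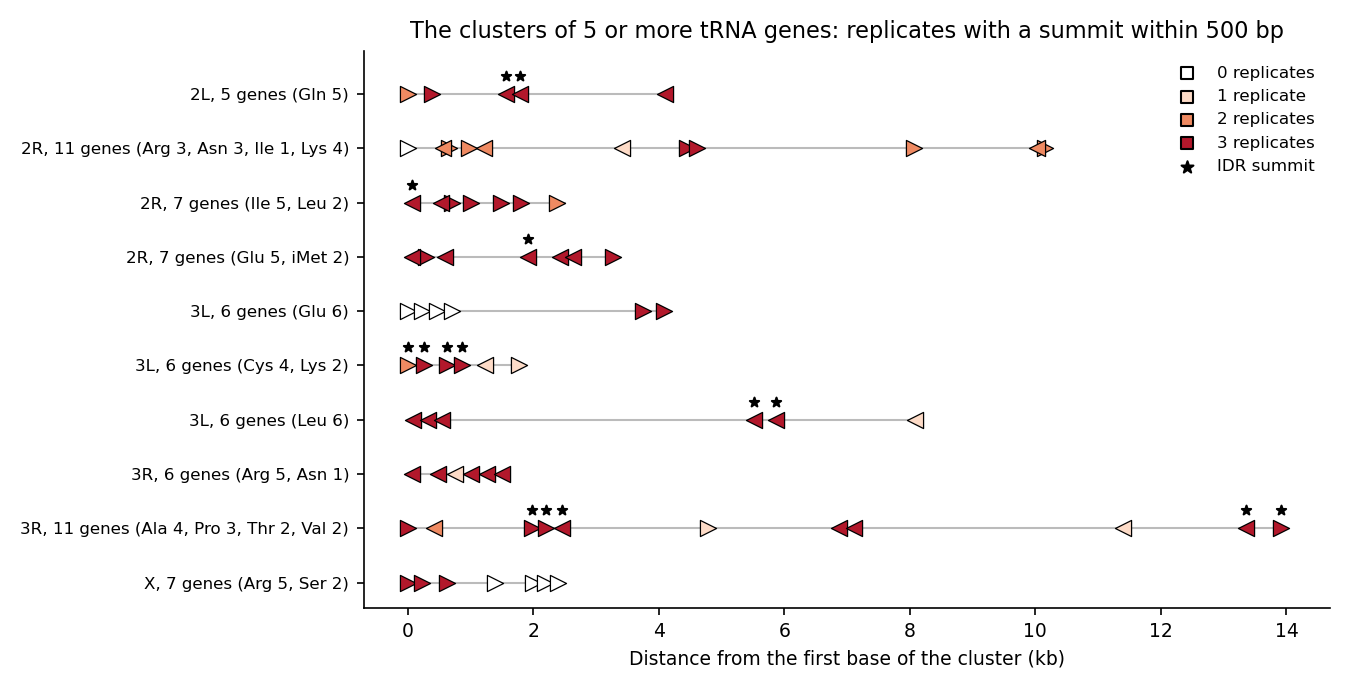
The 10 clusters of at least 5 tRNA genes, drawn to scale from the first base of each cluster (kb); triangles are genes pointing in their direction, their shade is the number of replicates with a summit within 500 bp, and stars mark genes with an IDR summit. The 2 clusters of 11 genes, on 2R and 3R, differ in IDR summits, and 4 neighbouring genes on 3L and 4 on X have no summit in any replicate.

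Genes in large clusters had summits more often than single genes. The 290 genes form 144 clusters: 76 single genes, 58 clusters of 2 to 4 genes holding 142, and 10 clusters of at least 5 holding 72. A pooled summit stood at 34.2% of single genes, 56.3% of genes in clusters of 2 to 4 and 79.2% of genes in clusters of at least 5. IDR summits stood at 6.58, 13.4 and 20.8%, and a summit in all 3 replicates at 14.5, 35.9 and 62.5%. The order was the same in all of these measures. Genes packed together reach the same summits, so these shares count a peak several times. Counted by cluster, 76 of 144 (52.8%) had a pooled summit and 22 (15.3%) an IDR summit. Among the 58 single genes over 1000 bp from a TSS, with no shared peak, 19 (32.8%) had a pooled summit and 1 an IDR summit, so their pooled share was above the 14.5% of positions this far from a TSS and their IDR share, 1.72%, was below the 3.73%.

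The map of clusters shows how the large ones differ. The cluster of 11 on 3R (17617761 to 17631750), with 4 Ala, 3 Pro, 2 Thr and 2 Val genes, had an IDR summit at 5 genes, a pooled summit at 10, and a summit at 10, 9 and 9 genes in replicates 1, 2 and 3. The cluster of 11 on 2R (6161535 to 6171759), with 3 Arg, 3 Asn, 1 Ile and 4 Lys genes, had no IDR summit but a pooled one at 10, and a summit at 9, 10 and 2 genes in the replicates. Replicate 3 thus lacked most of the 2R cluster and not the 3R one. The pooled signals in the 2R cluster were 61.5 to 165.5.

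On 2R, the cluster of 5 Ile and 2 Leu genes (13430282 to 13432794) had a pooled summit at all 7 genes and an IDR summit at 1, and the replicates had summits at 7, 6 and 7. The cluster of 5 Glu and 2 iMet genes (19725620 to 19728958) had pooled summits and summits of every replicate at all 7, and an IDR summit at 1. On 3L, the cluster of 4 Cys and 2 Lys genes (3095737 to 3097590) had an IDR summit at 4 genes and that of 6 Leu genes (8060214 to 8068290) at 2. These showed summits in 4 to 6 genes in each replicate.

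On 2L, the 5 Gln genes (2009155 to 2013250) had an IDR summit at 2 and a pooled one at 4. On 3R, the 5 Arg and 1 Asn genes (8139533 to 8141042) had no IDR summit and a pooled one at 5. The remaining clusters were split within themselves. The 6 Glu genes on 3L (1397695 to 1401852) had pooled summits at the last 2 alone, and the 5 Arg and 2 Ser genes on X (14014814 to 14017284) at the first 3 alone, in the pooled list and in each replicate.

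In both split clusters most genes without summits are evenly spaced tandem copies. tRNA:Glu-CTC-3-4 to tRNA:Glu-CTC-3-7 repeat every 237 bp and tRNA:Arg-TCG-3-2 to tRNA:Arg-TCG-3-4 every 202 bp. Of the 31-base words within 500 bp of these 4 Glu genes, 26.2 to 55.4% occur once on the arms, around these 3 Arg genes 44.8 to 63.5%, and around tRNA:Arg-TCG-3-1, an identical copy without a summit outside that spacing, 51.8%, where the median over all tRNA genes is 92.1% and the share over all words of the arms is 87.5%. The files do not say how reads with several placements were treated, and the part of this in the missing summits was not tested.

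Over all tRNA genes, 16 had under 80% unique words in that window. Of these, 3 (18.8%) had a pooled summit, none an IDR summit, and 11 had none in any replicate. Of the 193 genes with 80 to under 95% unique words, 65.3% had a pooled and 15.5% an IDR summit, and of the 81 with at least 95%, 42% and 11.1%. The last class lies in 65 clusters and holds mainly small ones. No word inside the gene body is unique in 238 genes, those with an identical copy.

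Identical copies themselves tracked the replicates unequally. The 52 genes with a sequence of their own had a summit in 51.9% in each of the 3 replicates and in the pooled list. The 58 genes with 2 to 4 copies had 60.3, 65.5 and 60.3% in replicates 1, 2 and 3. The 180 genes with at least 5 copies had 62.8, 61.1 and 43.9%. Replicate 3 was thus lowest in the genes with many copies. Read lengths and depths of the replicates were not known, and their part in this was not tested. The replicates also differed by arm. Replicates 1, 2 and 3 had summits at 72, 64 and 45 genes on 2R and 52, 50 and 38 on 3R, where replicate 3 was lowest. They had 23, 23 and 22 on 2L, 23, 27 and 25 on 3L, and 5, 11 and 11 on X, where replicate 1 was lowest. By arm, the pooled share was 66.3% on 2R, 60.8% on 3R, 48.8% on 2L, 47.9% on 3L and 29.2% of the 24 genes on X.

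**Figure D5:**
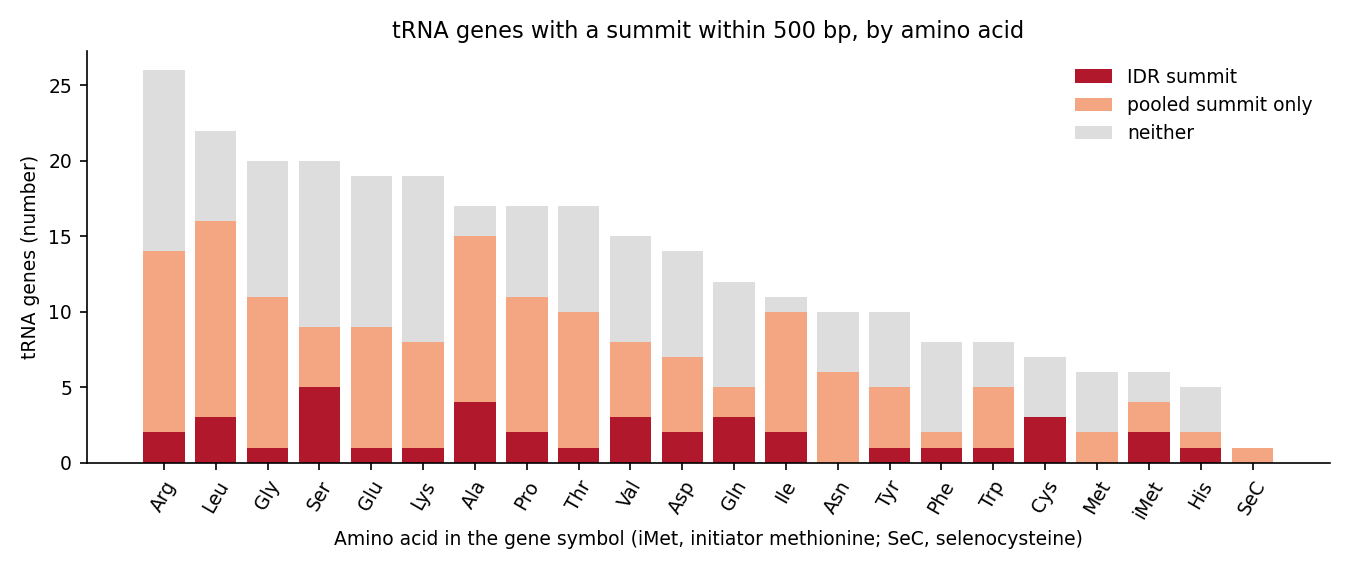
Number of tRNA genes per amino acid group, split into genes with an IDR summit (dark), with a pooled summit only (light) and with neither (grey). Ala and Ile genes had a pooled summit most often among groups of over 10 genes, at 15 of 17 and 10 of 11.

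Summits were spread over the amino acids, as the plot by amino acid shows. An IDR summit stood at 1 to 5 genes in 19 of the 22 groups, and in Asn (10 genes), elongator Met (6 genes) and selenocysteine (1 gene) at none. Ser had 5 of 20, Ala 4 of 17, and Leu 3 of 22, Val 3 of 15, Gln 3 of 12 and Cys 3 of 7. Pooled summits stood at 16 of 22 Leu, 14 of 26 Arg, 11 of 17 Pro and 11 of 20 Gly genes. The lowest pooled counts in groups of at least 5 were 2 of 8 Phe, 2 of 6 elongator Met and 2 of 5 His genes. Copies in a cluster share peaks, so no group is said to differ from another.

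Anticodon families, chosen here after their values were seen, ran from all to none. All 12 Ala-AGC genes, all 9 Ile-AAT genes and all 7 Pro-AGG genes had a pooled summit, in 6, 5 and 3 clusters. In the replicates the Ala-AGC genes had summits at 12, 8 and 7. By contrast, none of the 8 Ser-AGA genes, in 6 clusters, and none of the 5 Pro-CGG genes, in 5, had a pooled summit. At the Ser-AGA genes the replicates had summits at 1, 4 and 5, and at the Pro-CGG genes at 0, 1 and 1.

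Initiator tRNA, which starts every protein, is encoded by 6 iMet genes, and 4 of them had a pooled summit. The divergent pair tRNA:iMet-CAT-1-4 (FBgn0011927) and tRNA:iMet-CAT-1-5 (FBgn0011928) shared an IDR summit of 336. At the second the replicates gave 222, 87.1 and 43.0. The first had the same 222 and 87.1, but its 48.3 in replicate 3 is another summit. That one lies 418 bp downstream of the first gene's 5′ end, and the shared IDR summit 216 bp upstream of it. The pair tRNA:iMet-CAT-1-1 (FBgn0050452) and tRNA:iMet-CAT-1-2 (FBgn0050218) had a pooled signal of 285.8, just below the lowest IDR signal, 286.5, and 179, 50.2 and 39.2 in the replicates. The same summits lie within 500 bp of tRNA:Glu-TTC-1-4. The pooled summit is 27 bp upstream of the 5′ end of tRNA:iMet-CAT-1-2. Those of replicates 2 and 3 are 208 and 118 bp downstream of it. tRNA:iMet-CAT-1-3 (FBgn0052482) had no pooled summit but 35.7 in replicate 2 and 26.8 in replicate 3. tRNA:iMet-CAT-2-1 (FBgn0011921) had none in any list.

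Elongator Met genes, whose tRNA reads internal methionine codons, had a summit at 2 of 6 in replicate 1. Replicate 2 had a summit at none and replicate 3 at 1, so no gene had a summit in all 3. The lone selenocysteine gene, tRNA:SeC-TCA-1-1 (FBgn0011987), whose tRNA reads a stop codon as selenocysteine, had a pooled signal of 126.6, with 76.5 and 56.0 in replicates 1 and 2 and none in replicate 3. Of the families with introns by annotated length, the Tyr-GTA genes (93 to 186 bp) had a pooled summit at 5 of 10, the Leu-CAA genes (121 to 127 bp) at 2 of 4 and the Ile-TAT genes (98 to 100 bp) at 1 of 2.

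The B box as searched, GTTCNANNC on the gene's strand, was in 271 of 290 tRNA genes (93.4%). The 19 genes without these letters are the Ala-AGC genes, the iMet genes and tRNA:Thr-AGT-2-1, and 17 of them had a pooled and 5 an IDR summit. In windows reaching 100 bp to each side of the 152 pooled summits near tRNA genes, GTTCNANNC on either strand was in 36.2%, against 5.87% of the windows at other pooled summits and 6.02% of all windows of the arms. The tRNA genes lie close to these summits by choice, so the share describes how near they are.

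Letters that basic helix-loop-helix proteins of this family are known to bind were at a similar or lower share at these summits than at others. The E box CACGTG, searched on both strands, was in 3.95% of the windows at tRNA genes, 3.77% of those at other pooled summits and 2.36% of all windows. CACGCG was in 5.26, 6.34 and 3.69%. The wider CACGNG, which includes both of these, was in 10.5, 16.5 and 12.9%. Some tRNA genes hold these letters in their own repeated sequence, as tRNA:Val-CAC-2-5 holds CACGTG and tRNA:Asp-GTC-1-4 holds CACGCG. Matches inside tRNA genes were not counted apart. No match says only that these letters are not in the window.

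The protein machinery of tRNA synthesis was looked at through a list of 26 genes, RNA polymerase III subunits, its factors and tRNA processing enzymes, of which 25 matched the annotation. Within 500 bp of any TSS, 14 of the 25 had an IDR summit (56%), against 28.1% of all 13945 protein-coding genes, with a median signal of 637. Polymerase subunits with a summit were Polr3E with a signal of 3472, rank 184 of the IDR list, Polr3F with 505.5, Polr3D with 422, Polr3G with 372 and Polr3K with 369. Those without were Polr3A and Polr3B, which form the catalytic core, and Polr3C and Polr3I. All the TFIIIB genes of the list had one: Brf with 2899.5, Bdp1 with 2626 and Trf with 384.

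Among the other factors, the TFIIIC subunit l(2)37Cd had 641, the TATA-binding protein Tbp 409 and La, which binds the 3′ ends of new polymerase III transcripts, 632. Maf1, a repressor of the polymerase, had none. Of the processing enzymes, RNaseZ, which cuts the 3′ end, had 1452, and the methyltransferases Mt2 and Trm7-34 had 912 and 779.9. Rpp30, cbc, Tsen34, Tsen54, Nsun2 and Trm7-32 had none. The 4 highest of these signals, at Polr3E, Brf, Bdp1 and RNaseZ, were above that of every tRNA gene but tRNA:Tyr-GTA-1-8.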

How the data were processed

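Per the provenance notes that the authors deposited, peaks were called on dm6 against 1 control alignment, for each replicate and for the joined alignments. Which aligner and caller made them is not given in the sources used here. The deposited signal of a peak is the authors' enrichment over the control, and it was used within a list only. A summit is the peak's start plus its offset in the file. Peaks off the arms, 5 of replicate 1, were left out. Annotation was that of Ensembl, and tRNA 5′ ends, amino acids and anticodons came from it. Nothing was compared between groups, so no test was made. Counts and shares were computed with Python 3.11.15, pandas 2.3.3, numpy 2.4.6 and scipy 1.17.1. The lookup of summits by distance was checked on simulated positions with known answers. Members, lists, distances and alternatives were chosen with earlier results of these data known. The genes named are the 20 with the highest IDR signal and any sharing their summit, every iMet and selenocysteine gene, the clusters of at least 5 genes, the genes next to the 500 bp limit and the listed polymerase III genes; some genes of that list are not reported here and were left out of its counts. The share of unique 31-base words and its classes were added after seeing the data. Replicates are biological per the labels, and the IDR list was made from all 3.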

Additional observations from a re-analysis of the deposited data

How the results depend on the processing

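Each of 7 counts was repeated under other settings, 49 in all; 35 stayed within 1.5 times the reported count and 14 did not. With the stronger of 2 equal parts of the IDR list alone, tRNA genes with an IDR summit fell from 39 to 9, distinct summits from 26 to 7, clusters from 22 to 7, genes over 1000 bp from a TSS from 22 to 3, and polymerase III genes from 14 to 8. Within 1000 bp in place of 500 bp these counts were 69, 45, 40 and 46, and the polymerase III count 14. Within 250 bp they were 23 genes, 17 summits and 13 genes far from a TSS. Genes with a summit in all 3 replicates, 107 as reported, were 59 within 250 bp and 14 among as many of the strongest peaks of each replicate as the IDR list holds. Shares of all genes and of arm positions were not counted at these other settings. Whether the tRNA genes stood above or below them there is therefore not known. Leaving out each replicate in turn gave 38 IDR genes each time, 24 to 25 summits, 21 clusters, 21 genes far from a TSS, and at most 148 genes with a summit in both others. The sets without a replicate are subsets of the IDR list. No paired analysis was possible because there is 1 group. Without read totals the depth is unknown, and a missing summit is one not in the authors' lists, which is not absence of the protein.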

Other observations

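Other transcripts of RNA polymerase III, chosen after their values were seen, also had summits in part. The snRNA:7SKa gene, whose RNA restrains the elongation factor P-TEFb, had an IDR signal of 610.3, with 431, 93.2 and 126 in replicates 1, 2 and 3. That gene lies between tRNA:Val-CAC-2-3 and tRNA:Val-CAC-2-4, neither of which had an IDR summit. RNaseMRP:RNA, the RNA of an enzyme that processes ribosomal RNA, had 547, with 322, 119 and 124. The spliceosomal genes snRNA:U6:96Ab and snRNA:U6:96Ac shared a summit of 366, with 237, 85.8 and 94.97, and no protein-coding TSS lay within 1000 bp of any of these 4 genes. These signals lay in the range of the tRNA genes.

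Lower values stood at related genes. Pooled signals were 68.6 at snRNA:U6:96Aa and 83.5 at snRNA:7SKb, each with a summit in replicate 1 alone, and RNaseP:RNA had 21.5 in replicate 3 alone. No list had a summit at snRNA:U6atac, snRNA:LU or either 7SL gene, 7SLRNA:CR42652 and 7SLRNA:CR32864. The 7SL genes stand among the tRNA genes tRNA:Lys-TTT-2-1 to tRNA:Lys-TTT-2-4, where 29.6 to 54.5% of 31-base words are unique on the arms and of which 1 had a summit, in 1 replicate. The 99 genes of biotype rRNA, repeated genes too, had a pooled summit at 1 and an IDR summit at none.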
